A study of Homo sapiens with 6 samples.

Results

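The mitochondrial genome of H9 cells, a human cutaneous T-cell lymphoma (CTCL) line, was examined through its 37 genes in bulk RNA-seq. Its members were all genes of the count table whose symbol begins with MT-, which gave 13 mRNAs, 2 rRNAs and 22 tRNAs out of 61541 genes. Wild-type H9 cells received vehicle (DMSO) in 3 libraries and AZD4573, a selective inhibitor of CDK9, in the other 3. The legends of the study give 50 nM for 4 h and the labels also give 4 h, whereas its discussion speaks of 6 h. No label says whether the replicates came from separate cultures, so that p-values measure the spread between libraries. H9 is a single established line, and the groups differ in no other agent or allele that the labels name. The labels describe poly(A)-selected RNA, whereas the supplemental methods describe depletion of rRNA, and which of them was applied bears on the rRNA and tRNA values given here.

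Mitochondria keep a small circular genome of their own. It is transcribed by POLRMT, a polymerase distinct from RNA polymerase II (RNAP2), together with the factors TFAM and TFB2M. CDK9 is the kinase that releases paused RNAP2 into elongation on nuclear genes. Both strands are copied into long transcripts, from which the tRNAs are cut out, and this sets free the rRNAs and mRNAs that lie between them. The mRNAs receive short poly(A) tails and encode core subunits of respiratory complexes I, III and IV and of the ATP synthase (complex V), whose remaining subunits are made from nuclear genes transcribed by RNAP2.

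The annotated gene ends show how closely the mRNAs are bounded by these cuts. Of the 13 mRNA genes as annotated, 6 end within a stop codon, which the poly(A) tail then completes, and 7 end with a whole one. AGA of MT-CO1 and AGG of MT-ND6 are counted as whole, and so is TAA of MT-ATP6, although its last base also belongs to MT-CO3. The last 21 bases of MT-ND3, the mRNA with the smallest change, of MT-ND1 and of MT-CO2, the mRNA with the largest, are shown 5′ to 3′ from GRCh38, with the bases of the stop codon in capitals.
MT-ND3 (chrM:10384-10404, + strand): aaggattagactgaaccgaaT
MT-ND1 (chrM:4242-4262, + strand): cagcattccccctcaaaccTA
MT-CO2 (chrM:8249-8269, + strand): gggcccgtatttaccctaTAG

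Neighbouring genes can also share bases. MT-ATP8 and MT-ATP6, the subunits of ATP synthase carried on 1 common mRNA, overlap by 46 bases. How reads that reach beyond the overlap were divided between the genes was not tested. The shared bases, which alone do not tell the genes apart, are shown here with the start codon of MT-ATP6 in capitals.
MT-ATP8 and MT-ATP6 (chrM:8527-8572, + strand): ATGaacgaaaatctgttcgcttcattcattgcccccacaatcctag
MT-ND4L and MT-ND4 share 7 bases in the same way, and MT-ATP6 and MT-CO3 share 1. RSEM at its default settings does not use the strand of a read, so that RNA from the opposite strand, which over MT-ND6 is the heavy-strand transcript, cannot be told apart from the gene's own.

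All 22 tRNAs were at 0 counts in each of the 6 libraries. Taken as 3 counts of the library total, a count of 0 allowed up to 0.0392 CPM (the usual scaling of counts by the library's sum) in the deepest library and up to 0.0576 CPM in the shallowest, which covers counting error only. The tRNA genes are between 59 and 75 bases long, and the shortest and the longest of them are shown whole, for their size.
MT-TS2 (chrM:12207-12265, + strand): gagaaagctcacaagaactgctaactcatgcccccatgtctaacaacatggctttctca
MT-TL1 (chrM:3230-3304, + strand): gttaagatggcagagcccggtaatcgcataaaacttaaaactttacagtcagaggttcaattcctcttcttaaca
Both the 14 tRNAs that lie on the heavy-strand transcript and the 8 on the light-strand transcript were at 0, so that a difference in tRNA levels was not detectable in these libraries.

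Library totals lay between 70367303 and 76571157 counts with DMSO and between 52101868 and 63795185 with AZD4573, so that depth moved with treatment, and its part in the results was not tested. Of the 13 T-cell markers, 11 were above 1 CPM in each library, whereas CD2 and CD7 were below it throughout. The summed level of these markers ranged from 1612 to 1626 CPM with DMSO and from 1998 to 2012 CPM with AZD4573. Summed B-cell markers ranged from 63.5 to 68.7 CPM with DMSO and from 90.3 to 98.3 CPM with AZD4573, nearly all of it CD79A, while MS4A1 and PAX5 were at most at 0.329 CPM. The 5 myeloid markers summed to at most 0.512 CPM with DMSO and 2.03 CPM with AZD4573, and the 5 epithelial and fibroblast markers, led by EPCAM, to between 162 and 177 CPM with DMSO and between 131 and 138 CPM with AZD4573. The part of these marker levels in the mitochondrial results was not tested.

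Transcripts of the mitochondrial genome took a larger share of each library upon AZD4573 treatment than of any library with vehicle. They made up 3.49%, 3.60% and 3.70% of all counts with DMSO and 5.41%, 5.79% and 5.71% with AZD4573. The groups did not overlap, and the lowest AZD4573 library stood well above the highest DMSO library. The means were 3.60% ± 0.107 and 5.64% ± 0.198 (SD, n = 3 each), a ratio of 1.57, and the two-sided exact permutation test gave p = 0.1, the smallest value that 3 against 3 libraries allow. The plot of the mitochondrial share by library separates the 2 classes of RNA.

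**Figure D1:**
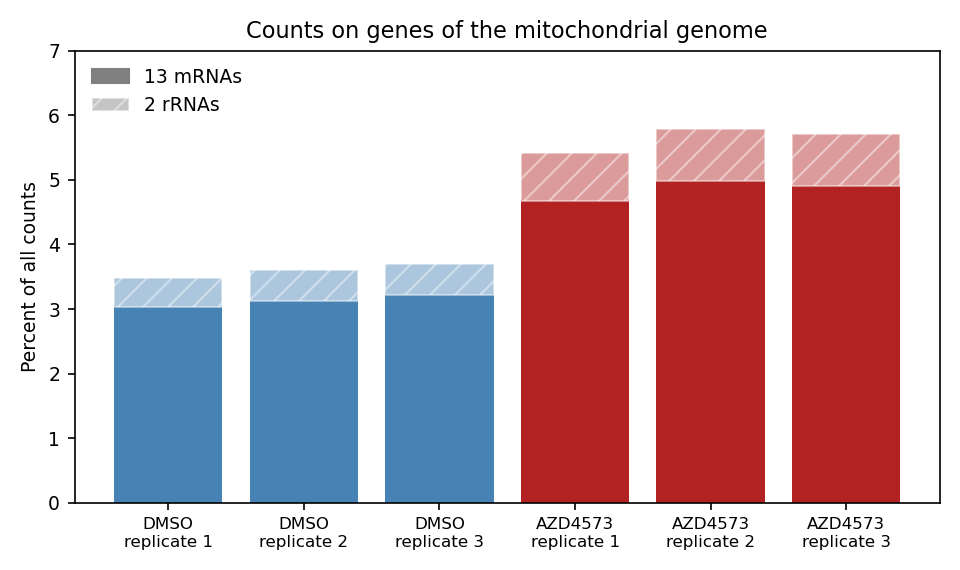
Percent of all counts that fell on the 13 mRNAs (solid) and the 2 rRNAs (hatched) of the mitochondrial genome, 1 stacked bar per library (blue, DMSO; red, AZD4573). The bars of the DMSO libraries reach 3.49% to 3.70% and those of the AZD4573 libraries 5.41% to 5.79%.

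Both classes of RNA showed this. The 13 mRNAs made up 3.04%, 3.12% and 3.22% of the counts with DMSO and 4.67%, 4.98% and 4.91% with AZD4573, a ratio of means of 1.55. The 2 rRNAs made up 0.451%, 0.475% and 0.479% with DMSO and 0.743%, 0.811% and 0.795% with AZD4573, a ratio of 1.67. For each class the groups were apart and the exact permutation test, two-sided, gave p = 0.1. Read the other way, the nuclear genome gave 27.7, 26.8 and 26.0 counts per mitochondrial count with DMSO and 17.5, 16.3 and 16.5 with AZD4573. A share compares mitochondrial with nuclear RNA in the same library, and whether mitochondrial RNA rose or nuclear RNA fell per cell cannot be told apart from it. In bulk samples, a change in the number of cells and a change in RNA per cell also cannot be told apart.

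Gene by gene, each of the 15 mitochondrial genes that carried counts was higher with AZD4573. Their changes were taken from edgeR's quasi-likelihood test on all 17678 genes that passed its filter on low counts, with TMM scaling and Benjamini-Hochberg adjustment over those genes. All 15 passed at an adjusted p under 0.05 (15 also with DESeq2), and none of them overlapped between the groups. Of all genes tested, 37.3% were called higher and 37.4% lower, and 39.0% were higher and 38.7% lower without overlap. With a fold change of at least 1.5 asked for as well, 13 of the 15 remained, against 22.7% of all genes, and MT-ND3 (1.43-fold) and MT-ATP8 (1.49-fold) fell short of it. The log2 fold changes of the 13 mRNAs lay between 0.52 and 0.78 with a median of 0.71 (1.63-fold), while the median of all genes tested was 0.03 and their quartiles were -0.59 and 0.58. On the scale of CPM without TMM, the ratios of means were smaller, from 1.33 for MT-ND3 to 1.69 for MT-RNR2.

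The mRNAs of the 3 catalytic core subunits of complex IV (cytochrome c oxidase), which passes electrons to oxygen, had the most counts per base of gene length. MT-CO1 (chrM:5904-7445) lay at 7458, 7524 and 7514 CPM with DMSO and 11198, 12360.4 and 12342 CPM with AZD4573. MT-CO2 (chrM:7586-8269) lay at 3309, 3482 and 3622 CPM with DMSO and 5519.5, 5701 and 5418 CPM with AZD4573. MT-CO3 (chrM:9207-9990) lay at 4217, 4221 and 4318 CPM with DMSO and 6194, 6901 and 6788 CPM with AZD4573. For each of these genes, the lowest library with AZD4573 exceeded the highest with DMSO. By edgeR, the log2 fold changes were 0.78 (SE 0.0508, adjusted p = 1.1e-08) for MT-CO1, 0.78 (SE 0.0450, adjusted p = 3.2e-09) for MT-CO2 and 0.75 (SE 0.0512, adjusted p = 1.8e-08) for MT-CO3.

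Complex I (NADH dehydrogenase) takes electrons from NADH, and 7 of its membrane-arm subunits are mitochondrial. MT-ND1 (chrM:3307-4262), next to the site where quinone is bound, lay at 1641, 1843 and 1972 CPM with DMSO and 2564, 2675 and 2555 CPM with AZD4573. MT-ND2 (chrM:4470-5511), MT-ND4 (chrM:10760-12137) and MT-ND5 (chrM:12337-14148) encode the antiporter-like subunits that pump protons. MT-ND2 was at 3552, 3463 and 3519 CPM with DMSO and 5140.3, 5239 and 5331 CPM with AZD4573. MT-ND4 was at 3309, 3454 and 3580.3 CPM with DMSO and 5187, 5638 and 5578 CPM with AZD4573. MT-ND5 was at 1434, 1530.0 and 1599 CPM with DMSO and 2242, 2495 and 2460.4 CPM with AZD4573. The groups were apart for each of these 4 genes, with the AZD4573 libraries on the upper side. By edgeR the log2 fold changes were 0.62 (SE 0.0569, adjusted p = 3.2e-07) for MT-ND1, 0.68 (SE 0.0428, adjusted p = 7.4e-09) for MT-ND2, 0.77 (SE 0.0495, adjusted p = 9.2e-09) for MT-ND4 and 0.76 (SE 0.0548, adjusted p = 2.7e-08) for MT-ND5.

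The 3 smaller complex I subunits had fewer counts. MT-ND3 (chrM:10059-10404) was at 487, 391 and 437 CPM with DMSO and 649.9, 543 and 559.8 CPM with AZD4573. MT-ND4L (chrM:10470-10766) was at 284, 287 and 324 CPM with DMSO and 445, 424 and 411 CPM with AZD4573. MT-ND6 (chrM:14149-14673), the only mRNA of the light-strand transcript, was at 243, 269 and 292 CPM with DMSO and 392, 409 and 387 CPM with AZD4573. For MT-ND3, DMSO replicate 1 was the highest of its group and AZD4573 replicate 1 the highest of the other, and the groups were apart for all 3 genes. By edgeR the log2 fold changes were 0.52 (SE 0.0775, adjusted p = 3.9e-05) for MT-ND3, 0.62 (SE 0.0502, adjusted p = 9.0e-08) for MT-ND4L and 0.67 (SE 0.0552, adjusted p = 1.1e-07) for MT-ND6.

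Complex III has 1 mitochondrial subunit, cytochrome b, and the ATP synthase has a pair. MT-CYB (chrM:14747-15887) was at 1628, 1788 and 1864 CPM with DMSO and 2586, 2756 and 2678 CPM with AZD4573. MT-ATP6 (chrM:8527-9207), which forms the proton path of the synthase, was at 2571, 2745 and 2891 CPM with DMSO and 4208, 4311 and 4295 CPM with AZD4573. MT-ATP8 (chrM:8366-8572), a small subunit of its stator, was at 224, 233 and 281 CPM with DMSO and 381, 334 and 311 CPM with AZD4573. The groups were apart for all 3 genes, with the closest approach in MT-ATP8, between DMSO replicate 3 and AZD4573 replicate 3. By edgeR the log2 fold changes were 0.71 (SE 0.0518, adjusted p = 3.2e-08) for MT-CYB, 0.75 (SE 0.0470, adjusted p = 7.4e-09) for MT-ATP6 and 0.58 (SE 0.0777, adjusted p = 1.4e-05) for MT-ATP8.

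The 2 rRNAs form the large and the small subunit of the mitochondrial ribosome. MT-RNR2 (chrM:1671-3229), of the large subunit, was at 4256, 4464 and 4452 CPM with DMSO and 7002, 7677 and 7520.0 CPM with AZD4573. MT-RNR1 (chrM:648-1601), of the small subunit, was at 254, 289.7 and 337 CPM with DMSO and 426, 433 and 435 CPM with AZD4573. MT-RNR2 had the largest change of the 15 genes, at 0.86 (SE 0.0490, adjusted p = 2.9e-09) on the log2 scale by edgeR, and MT-RNR1 was at 0.66 (SE 0.0729, adjusted p = 2.0e-06). The plot of changes in genome order shows that the intervals of most genes overlap one another.

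**Figure D2:**
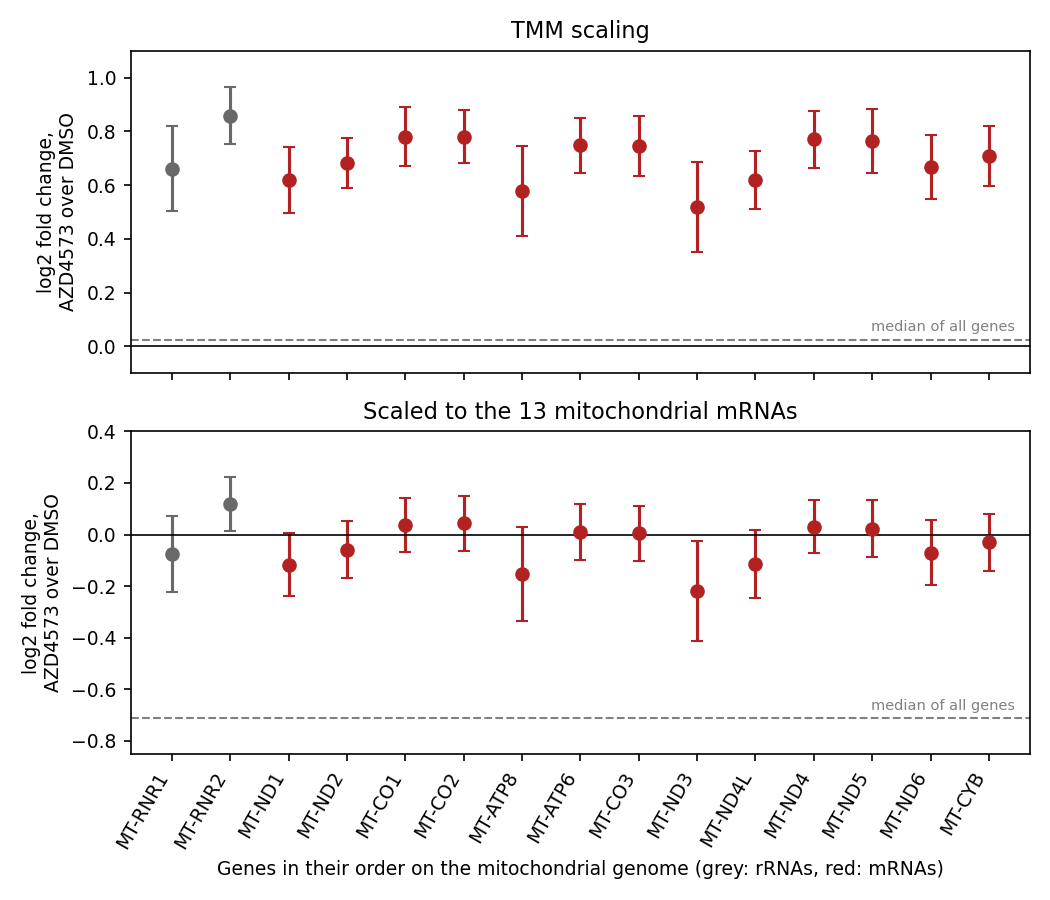
Log2 fold change (AZD4573 over DMSO) with its 95% confidence interval from edgeR for the 2 rRNAs (grey) and 13 mRNAs (red), in their order on the genome. With TMM scaling (top) all 15 lie above the median of all genes tested (dashed, 0.03), and scaled to the 13 mRNAs (bottom) they lie between -0.22 and 0.12, with the median of all genes at -0.71.

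Levels of different genes were compared per length, as CPM per kb of gene with DMSO (mean ± SD, n = 3). MT-CO3 led with 5424 ± 72.8, followed by MT-CO2 with 5075 ± 229 and MT-CO1 with 4863 ± 23.2. MT-ATP6 stood at 4017 ± 235, MT-ND2 at 3369.9 ± 43.1, MT-RNR2 at 2816 ± 75.1 and MT-ND4 at 2502 ± 98.5. MT-ATP8 was at 1188 ± 147, although it is carried on the same mRNA as MT-ATP6. The order is therefore one of counts per annotated length and not of mRNA molecules. The lowest mRNAs were MT-ND5 at 839 ± 45.7 and MT-ND6 at 511 ± 46.2, and MT-RNR1 was lower still at 308 ± 43.8. The ranges of the DMSO libraries overlapped between neighbours in this order only for MT-CO2 and MT-CO1, MT-ND3 and MT-ATP8, and MT-ATP8 and MT-ND4L. The order of the 15 means was the same with AZD4573. Both rRNAs are spaced by only a tRNA gene on the same transcript, yet MT-RNR1 was at 5.97%, 6.49% and 7.58% of MT-RNR2 in counts with DMSO and at 6.09%, 5.64% and 5.78% with AZD4573, values that overlap (exact permutation test, two-sided, p = 0.2).

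Of the counts of the 13 mRNAs, MT-CO1 took 24.6%, 24.1% and 23.3% with DMSO and 24.0%, 24.8% and 25.1% with AZD4573, and MT-CO3 took 13.9%, 13.5% and 13.4% with DMSO and 13.3%, 13.9% and 13.8% with AZD4573. These shares overlapped between the groups. By complex, the mRNAs of complex IV made up 48.7% ± 0.695 with DMSO and 49.7% ± 0.585 with AZD4573, those of complex I 36.1% ± 0.218 and 35.3% ± 0.299, that of complex III 5.62% ± 0.230 and 5.51% ± 0.0483, and those of complex V 9.53% ± 0.319 and 9.51% ± 0.273 (SD, n = 3 each).

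**Figure D3:**
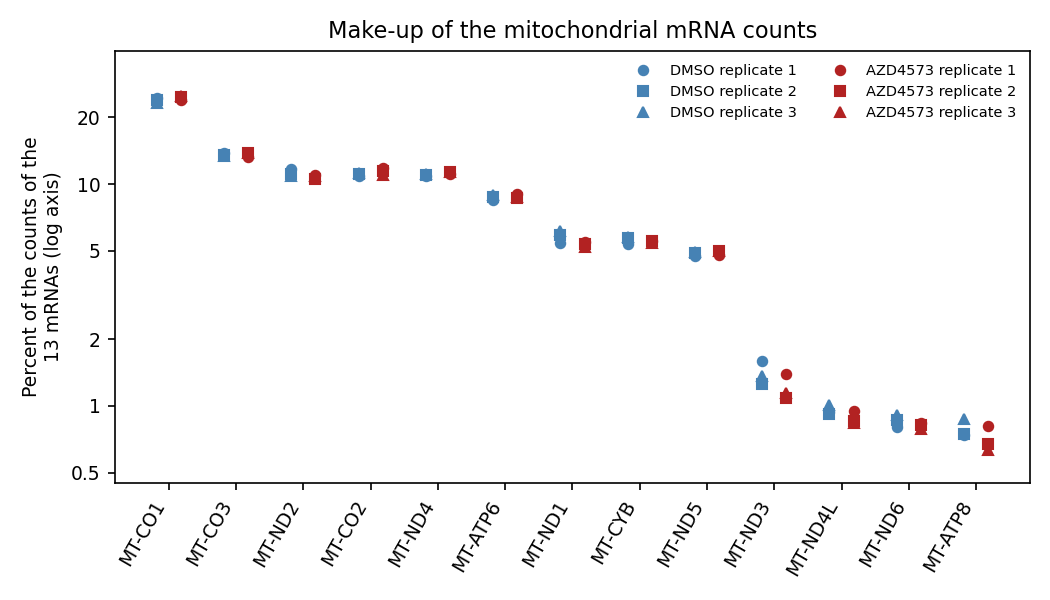
Percent of the counts of the 13 mitochondrial mRNAs taken by each mRNA (log axis), 1 point per library (blue, DMSO; red, AZD4573; the symbols stand for replicates), ordered by the DMSO mean. MT-CO1 takes 23.3% to 25.1% in all libraries, and the groups lie close together for each mRNA.

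With the libraries scaled to the summed counts of the 13 mRNAs, the log2 fold changes of these mRNAs spread from -0.22 to 0.04. This scaling sets the sum of the 13 mRNAs equal between libraries, so that their changes lie around 0 by construction. Only differences among the 13 can be read from it, and not their contrast with other genes. In edgeR's test, 0 of the 13 were higher, adjusted or not, and 1 was lower, where 12.1% of all genes tested were called higher and 67.2% lower on this scale. The mRNA called lower was MT-ND3, at -0.22 (95% interval -0.41 to -0.02, adjusted p = 0.0391), and DESeq2 with size factors from the same genes called 0 in either direction (MT-ND3 adjusted p = 0.0700). Since most genes tested were called on this scale, edgeR's adjustment over all 17678 genes raised the p-values only a little. No adjustment was made over the 13 mRNAs alone, so that the call of MT-ND3 is not guarded against picking 1 of 13. The call held with libraries scaled by the median of ratios of the 13 mRNAs, with summed nuclear copies and without DMSO replicate 2. It was lost without DMSO replicate 1 (-0.11), DMSO replicate 3 (-0.24), AZD4573 replicate 2 (-0.15) or AZD4573 replicate 3 (-0.18), and without AZD4573 replicate 1 it was joined by MT-ATP8 (-0.27) and MT-ND4L (-0.18). Of the counts of the 13 mRNAs, MT-ND3 took 1.60%, 1.25% and 1.36% with DMSO and 1.39%, 1.09% and 1.14% with AZD4573, so that AZD4573 replicate 1 lay within the DMSO range. For the other 12 mRNAs, the 95% intervals reached no further than -0.33 on the lower side and 0.15 on the upper side.

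MT-ND3, MT-ND4L and MT-ATP8 are the 3 mRNA genes shorter than 350 bases (346, 297 and 207 bases), a grouping chosen after their values were seen. Together they took 3.28%, 2.92% and 3.23% of the counts of the 13 mRNAs with DMSO and 3.16%, 2.61% and 2.61% with AZD4573, and the groups overlap. Across the 13 mRNAs, Spearman's rho was 0.65 between gene length and log2 fold change and 0.55 between the level per kb with DMSO and log2 fold change. Over the 12 heavy-strand mRNAs, rho was 0.06 between the position of the gene and log2 fold change. These correlations are across genes of the same 6 libraries, which are not independent replicates. By the kind of annotated gene end, the 6 mRNAs that end within a stop codon, such as MT-ND3 and MT-ND1 above, had log2 fold changes from 0.52 to 0.77 (median 0.69). The 7 annotated with a whole stop codon, such as MT-CO2, had changes from 0.58 to 0.78 (median 0.75).

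Further ratios that need no scaling were taken between genes and classes of RNA. Since the counting did not use strand, counts of MT-ND6 can include heavy-strand RNA, and its ratio cannot be read as a comparison of the strands. MT-ND6 stood at 0.808%, 0.870% and 0.914% of the 12 heavy-strand mRNAs with DMSO and at 0.846%, 0.829% and 0.794% with AZD4573. The groups overlapped, and the difference of -0.07 on the log2 scale was within the spread of the DMSO libraries (exact permutation test, two-sided, p = 0.3). The 2 rRNAs together stood at 14.9%, 15.2% and 14.9% of the 13 mRNAs with DMSO and at 15.9%, 16.3% and 16.2% with AZD4573. These groups did not overlap, and the log2 difference was 0.11 (exact permutation test, two-sided, p = 0.1, the smallest the design allows). Relative to the 13 mRNAs, the log2 fold change of MT-RNR2 was 0.12 (edgeR, adjusted p = 0.0366) and that of MT-RNR1 was -0.08 (adjusted p = 0.332). Here too the adjustment ran over all 17678 genes, most of them called on this scale, and raised the p-values only a little.

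Stretches of mitochondrial DNA were copied into the nuclear chromosomes during evolution, and near-identical copies can share reads with the mitochondrial genes. The table lists 415 such copies, of which 72 had at least 1 count and 12 were tested. MTATP6P1, a copy of MT-ATP6 on chromosome 1 (chr1:633696-634376), held 91.3% of the counts on all copies. It differs from MT-ATP6 at 10 of 681 aligned bases, an identity of 98.5%, and the longest run without a difference is 141 bases. The 90 bases with the most differences are shown for both in GRCh38, 5′ to 3′, with the 4 differing bases in capitals.
MT-ATP6 (chrM:8629-8718, + strand): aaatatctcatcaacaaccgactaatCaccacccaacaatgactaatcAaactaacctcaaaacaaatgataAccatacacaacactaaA
MTATP6P1 (chr1:633798-633887, + strand): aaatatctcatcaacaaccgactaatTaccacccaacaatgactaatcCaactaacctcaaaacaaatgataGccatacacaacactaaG
Its counts were 30730, 29510 and 35135 with DMSO and 34107, 35364 and 35915 with AZD4573. Set against MT-ATP6, these were 15.6%, 15.3% and 17.2% with DMSO and 15.6%, 13.8% and 13.1% with AZD4573. The log2 fold change of MTATP6P1 was 0.56 (edgeR, adjusted p = 6.2e-06), and with the copies' counts added to their mitochondrial genes that of MT-ATP6 was 0.72 in place of 0.75.

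Of the other tested copies, MTCO1P12, a copy of MT-CO1 with an identity of 98.6%, had a log2 fold change of 0.65 (edgeR, adjusted p = 4.2e-07), and MTND2P28, a copy of MT-ND2 with 98.4%, one of 0.64 (adjusted p = 2.0e-04). Not all copies changed like their genes. On at most 27 counts per library, MTND4P26, a copy of MT-ND4, was at 3.35 (adjusted p = 3.3e-04). On at most 37 counts, MTRNR2L8, named after MT-RNR2, was at -0.10 (adjusted p = 0.814). By edgeR, 6 of the 12 tested copies were higher and 0 were lower (7 and 0 without adjustment, 5 and 0 with DESeq2), where edgeR called 37.3% of all genes tested higher and 37.4% lower, and with 12 copies nothing particular to them is read from this count. MTCO1P12 carried at most 0.387% of the counts of its mitochondrial gene. Which of the 2 genomes the reads on these copies came from was not tested. With the copies included, the mitochondrial share of the counts was 3.64% ± 0.112 with DMSO and 5.70% ± 0.194 with AZD4573 (SD, n = 3 each).

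Most nuclear genes listed for mitochondrial transcription were lower with AZD4573. TFB1M and MTERF4, better known for work on rRNA, were placed in this list with POLRMT, TFAM, TEFM, MTRES1, TFB2M and MTERF1 to MTERF3. Of these 10 genes, 9 were lower and 0 higher by edgeR (9 and 0 also without adjustment and with DESeq2). Their median log2 fold change was -0.75 beside 0.03 for all genes, and the background of lower calls was 37.4%. POLRMT, the polymerase, was at 271, 301 and 300.5 CPM with DMSO and 224, 226 and 213 CPM with AZD4573, a log2 fold change of -0.29 (adjusted p = 5.5e-05) by edgeR. TFAM, which packages the DNA and opens its promoters, was at 174, 166 and 159.7 CPM with DMSO and 115, 113 and 116 CPM with AZD4573, a change of -0.44 (adjusted p = 1.5e-06). The groups were apart for both, with the AZD4573 libraries on the lower side. TFB2M, which melts the promoter with POLRMT, was at 24.6, 24.4 and 24.0 CPM with DMSO and 8.83, 6.59 and 7.51 CPM with AZD4573, a change of -1.57 (adjusted p = 2.4e-09). TEFM, the elongation factor, was at 11.8, 11.8 and 11.6 CPM with DMSO and 4.34, 4.84 and 4.78 CPM with AZD4573, a change of -1.22 (adjusted p = 2.8e-08). MTERF1, which binds a terminator downstream of the rRNA genes, was at 35.9, 36.9 and 36.5 CPM with DMSO and 9.90, 9.92 and 10.5 CPM with AZD4573, a change of -1.74 (adjusted p = 5.4e-11). The plot of nuclear partners places each of these groups beside the mitochondrial genes.

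**Figure D4:**
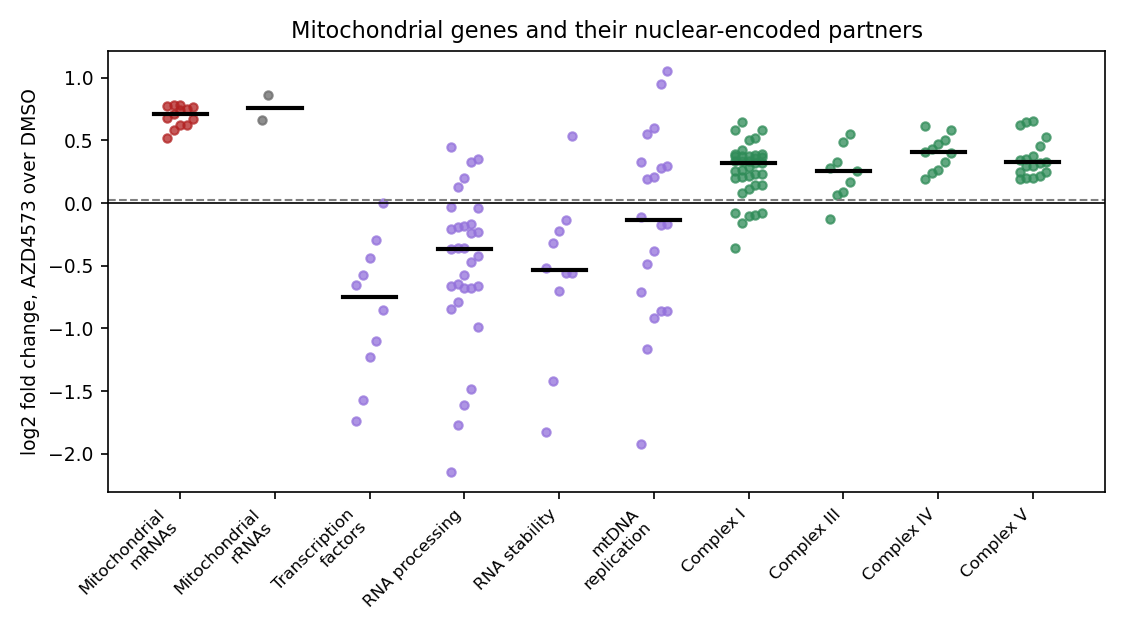
Log2 fold change (AZD4573 over DMSO, edgeR with TMM scaling) of each tested gene, 1 point per gene, with the median of each group as a bar and that of all genes tested as a dashed line. The mitochondrial mRNAs have a median of 0.71, and the 4 lists for expression of the mitochondrial genome and its replication have medians from -0.75 to -0.14. The nuclear subunits of complexes I, III, IV and V have medians from 0.25 to 0.41. These turn negative when the libraries are scaled to the 13 mitochondrial mRNAs, as that scaling subtracts the change of those mRNAs.

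Of 31 factors for cleavage, polyadenylation and modification of mitochondrial RNA, 24 were lower and 4 higher by edgeR, with a median of -0.37, beside 37.4% lower and 37.3% higher among all genes tested. MTPAP, the mitochondrial poly(A) polymerase, was at 31.9, 35.7 and 34.5 CPM with DMSO and 23.5, 23.3 and 21.9 CPM with AZD4573, a change of -0.47 (adjusted p = 7.6e-06). The largest falls were those of TRMT61B, a tRNA and rRNA methyltransferase, at -2.15 (adjusted p = 4.5e-10) and of RPUSD4, a pseudouridine synthase, at -1.77 (adjusted p = 1.2e-08). The largest rises were those of FASTKD5, which takes part in the cuts that no tRNA marks, at 0.44 (adjusted p = 4.5e-05) and of FASTKD3 at 0.35 (adjusted p = 3.6e-04). They became -0.30 and -0.39 with scaling to the 13 mRNAs, which subtracts the change of those mRNAs from every gene.

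Of 10 genes for stability and decay of mitochondrial RNA, 8 were lower and 1 higher by edgeR, with a median of -0.54, where the shares of all genes tested were 37.4% and 37.3%. The pair of proteins that bind and stabilise mitochondrial mRNAs split. LRPPRC was at 289.7, 312 and 310.0 CPM with DMSO and 403, 415 and 410.3 CPM with AZD4573, a change of 0.54 (adjusted p = 5.4e-08), which became -0.20 with scaling to the 13 mRNAs. SLIRP, its partner, was at 24.0, 22.7 and 21.9 CPM with DMSO and 16.5, 13.5 and 13.5 CPM with AZD4573, a change of -0.56 (adjusted p = 2.5e-05). The genes of the degrading complex were both lower, PNPT1, the nuclease, at -0.22 (adjusted p = 3.5e-04) and SUPV3L1, the helicase, at -0.51 (adjusted p = 1.4e-07). The largest falls were those of FASTKD2, which binds the large rRNA, at -1.83 (adjusted p = 9.5e-09) and of TACO1, an activator of MT-CO1 translation, at -1.42 (adjusted p = 4.3e-09).

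Of 20 genes for replication of mitochondrial DNA and supply of its nucleotides, 9 were higher and 10 lower by edgeR, with a median of -0.14. Of all genes tested, 37.3% were called higher and 37.4% lower, so that this list was split between the directions much as all genes were. POLG, the catalytic subunit of the DNA polymerase, was at 77.2, 101 and 103 CPM with DMSO and 47.8, 45.2 and 45.3 CPM with AZD4573, a change of -0.92 (adjusted p = 3.0e-07). POLG2, its accessory subunit, was at 28.5, 34.2 and 35.0 CPM with DMSO and 61.8, 63.2 and 63.5 CPM with AZD4573, a change of 1.06 (adjusted p = 8.2e-09). The groups were apart for both subunits, in opposite directions, and POLG2 stayed higher with scaling to the 13 mRNAs (0.32). The helicase TWNK was at -0.18 (adjusted p = 0.00366), the nuclease EXOG at -1.92 (adjusted p = 3.2e-09), the pyrimidine nucleotide carrier SLC25A33 at -1.16 (adjusted p = 2.7e-08) and the inner membrane protein MPV17 at 0.95 (adjusted p = 1.5e-08). Over these 4 lists, 51 of 71 genes were lower and 14 higher. Of the 71, 66 lay below the least changed mitochondrial mRNA (0.52). The upper quartile of all genes tested was 0.58, so that most genes tested also lay near or below that value.

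Of the 75 nuclear subunits of the same complexes, 61 were higher and 2 lower with TMM scaling. Counted among those of complex V was ATP5IF1, the inhibitory factor of the ATP synthase, at 0.33. The median of each complex turned negative with scaling to the 13 mRNAs, which subtracts the change of those mRNAs from every gene. By edgeR, 28 of 37 complex I subunits were higher and 2 lower (median 0.32), 5 of 9 complex III subunits were higher and 0 lower (median 0.25), all 11 of complex IV were higher (median 0.41) and 17 of 18 of complex V were higher and 0 lower (median 0.32). The counts of 0 lower became 1, 0 and 0 for complexes III, IV and V both without adjustment and with DESeq2. The background of higher calls was 37.3%. Below the least changed mitochondrial mRNA (0.52) lay 65 of the 75 subunits, where the upper quartile of all genes tested was 0.58. Scaled to the 13 mRNAs, the medians were -0.42, -0.49, -0.33 and -0.41 for complexes I, III, IV and V.

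In complex I, NDUFV1, which binds NADH, was at 219, 228 and 229.7 CPM with DMSO and 317, 335 and 333 CPM with AZD4573, a change of 0.65 (adjusted p = 9.7e-09) by edgeR. NDUFA7 was at 0.58 (adjusted p = 7.4e-07), and the 2 called lower were NDUFV3 at -0.36 (adjusted p = 2.1e-04) and NDUFC1 at -0.16 (adjusted p = 0.0439), of which NDUFC1 lost its call under 7 alternatives. In complex III the largest rises were those of UQCRB at 0.55 (adjusted p = 8.3e-07) and UQCRH at 0.49 (adjusted p = 1.8e-06). In complex IV they were those of COX8A at 0.61 (adjusted p = 2.3e-07) and COX4I1 at 0.58 (adjusted p = 1.5e-07), and in complex V of ATP5MG at 0.65 (adjusted p = 8.6e-07) and ATP5PD at 0.65 (adjusted p = 7.1e-07). With scaling to the 13 mRNAs, which subtracts their change, all of these rises became negative, from -0.25 for UQCRH to -0.09 for ATP5MG. Of the 75 nuclear subunit genes, 46 have pseudogenes named after them in the table, and 42 share exon bases with another gene of GENCODE release 44, as do 35 of the 71 genes of the other lists, so that the authors' counting could divide their reads.

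Set against each other within a library, mitochondrial and nuclear subunits of each complex gave ratios of counts that need no scaling. For complex IV, the ratio of the 3 mitochondrial to the 11 nuclear subunits was 12.6, 14.0 and 13.8 with DMSO and 15.6, 18.2 and 16.7 with AZD4573. For complex I, it was 4.33, 4.72 and 4.80 with DMSO and 5.77, 6.30 and 6.01 with AZD4573. The groups were apart for both, with higher ratios in the AZD4573 libraries. The ratio was 1.53, 1.82 and 1.87 with DMSO and 2.31, 2.62 and 2.38 with AZD4573 for complex III. For complex V, with ATP5IF1 counted among the nuclear subunits, it was 0.950, 1.09 and 1.14 with DMSO and 1.38, 1.43 and 1.37 with AZD4573. The ratio of the means was 1.31 for complex I, 1.40 for complex III, 1.25 for complex IV and 1.31 for complex V, with no overlap between the groups in any of the 4.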

How the data were processed

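Bulk RNA-seq of 6 H9 libraries was analysed, 3 treated with DMSO and 3 with AZD4573, grouped by their labels. Per the supplemental methods and the submitters' processing notes, the authors trimmed reads with cutadapt 2.3, aligned them to GRCh38 with STAR 2.7.8a and estimated counts with RSEM 1.3.3 at its defaults. The values the authors deposited are expected counts per gene, whole numbers that were not scaled. The 5 reporter rows held no gene and were left out. Gene positions, overlaps and sequences came from GENCODE release 44 and its GRCh38 genome.

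Genes were filtered, normalized and tested in R 4.3.3 with edgeR 4.0.16 (filterByExpr, minimum count 10; TMM; quasi-likelihood test; Benjamini-Hochberg over 17678 genes; adjusted p under 0.05), with no replicate block. Relative changes used the summed counts of the 13 mRNAs as library size. Alternatives were DESeq2 1.42.0, RLE, library size only, TMM without mitochondrial genes, 2 other filters, summed nuclear copies, a replicate block and each library left out. Shares and ratios were compared by the exact permutation test. The members and gene lists were chosen with earlier results of these data known. Named genes were the 15 mitochondrial genes with counts, 11 nuclear genes of the mitochondrial expression and replication machinery, and up to 2 falls and 2 rises per list, the largest among those called. The scripts were tested on simulated data. No library copied another of its group, since the chi-square of their counts was 5.29 to 19.4 times its degrees of freedom.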

Additional observations from a re-analysis of the deposited data

How the results depend on the processing

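The 15 mitochondrial genes kept their direction and their call in all 210 values recomputed with other normalizations, filters, tests and libraries left out, with log2 fold changes from 0.41 to 0.90 and adjusted p of at most 5.2e-04. Leaving out single libraries gave ratios of the mitochondrial shares from 1.54 to 1.60. Of the relative changes, the number of mRNAs called lower was 0 with DESeq2 and ranged from 0 to 3 with each library left out. MT-ND1 gained a call without DMSO replicate 1 (-0.17). MT-ATP6 (0.0097 on this scale) reversed to -0.0115 with summed copies and ranged from -0.0127 to 0.0288 with single libraries left out, turning negative without DMSO replicate 1 or AZD4573 replicate 1. MT-CO3 (0.0047) ranged from -0.00665 to 0.0249 and was negative without DMSO replicate 3, AZD4573 replicate 2 or AZD4573 replicate 3. None of these values was called.

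Scaling to the 13 mRNAs moved the median of all genes from 0.03 to -0.71 (library size only, -0.08). It left 2 of the 71 genes for mitochondrial gene expression and mtDNA and 0 of the 75 nuclear subunits called higher, and called 68 and 69 of them lower, where on this scale 12.1% of all genes tested were called higher and 67.2% lower. Medians became -0.42, -0.49, -0.33 and -0.41 for complexes I, III, IV and V, and FASTKD3 reversed to -0.39, FASTKD5 to -0.30, LRPPRC to -0.20, NDUFV1 to -0.0935, NDUFA7 to -0.16, UQCRB to -0.18, UQCRH to -0.25, COX4I1 to -0.15, COX8A to -0.13, ATP5PD to -0.0895 and ATP5MG to -0.0891, as this scaling subtracts the change of the 13 mRNAs. Nuclear subunits called lower were 1 with RLE, 7 with library size only, 4 without a filter and 1 with at least 10 counts in every library, and from 1 to 3 with each library left out. With the replicate block they were 1, NDUFC1 having lost its call, and the block changed no other count by over 1.5 times. Same-numbered libraries hardly deviated together (correlations -0.02, 0.04 and 0.03), and no level for pairing was set. Yet 4 of 6 correlated best with their own number, a hint from the data and not from the design. With the block, the relative change of MT-ND3 was -0.22 (adjusted p = 5.7e-04). Causes were not tested. For the tRNAs, 0 counts set only the upper limits given above, which do not bound tRNA levels.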
